A study of Homo sapiens with 24 samples.

Results

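The 45 genes described here encode parts of the autophagy machinery and of the lysosome, and they were taken from a list of names by their known roles, drawn up with earlier results of these data known. They were found on the array through 63 probes whose RefSeq accession belongs to a listed gene, and all 45 were among the 21240 genes tested. Of these genes, 29 had 1 probe, 14 had 2 probes and 2 had 3 probes, and the probes of a gene were averaged. By role they comprised 5 members of the LC3 and GABARAP family, 4 autophagy receptors, 7 genes of initiation and nucleation, 8 of conjugation and elongation, 2 MiT/TFE transcription factors, 6 genes of the lysosomal membrane and of lumenal transport, 8 lysosomal hydrolases and 5 subunits of the V-ATPase.

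RNA came from 3D aggregates of LUHMES, a human mesencephalic line immortalized by tetracycline-controlled v-myc that turns into post-mitotic dopaminergic-like neurons when v-myc is shut off. All 8 groups received the same differentiation medium with tetracycline, cAMP, GDNF and N2. On day 7 of differentiation the aggregates were given the DMSO vehicle, 50 nM rotenone for 12 h, 50 nM rotenone for 24 h or 100 nM rotenone for 24 h, and they were collected either at once, on day 8, or on day 15 after the compound had been washed out and 7 days of recovery had passed. Rotenone is a pesticide that blocks complex I of the respiratory chain. Each group had 3 samples of this 1 line, each hybridized to its own single-color Agilent array, so that the p values measure the spread between these samples. The question was which of these genes changed during the exposure and which were still changed after recovery.

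In macroautophagy, a kinase complex around ULK1 and a lipid kinase complex around Beclin 1 start a membrane that grows as LC3 and GABARAP proteins are conjugated to lipid by ubiquitin-like enzymes, while receptors such as p62 and optineurin tether the cargo. The closed autophagosome fuses with the lysosome, whose V-ATPase acidifies the lumen so that hydrolases can work, and whose membrane proteins export cholesterol, ions and amino acids. TFEB and TFE3 are transcription factors that bind short E-box elements in front of many of these genes. The pathway is of interest in dopaminergic neurons because inherited forms of Parkinson's disease and of lysosomal storage disease affect several of its genes. The arrays measured RNA only, and not the flux through the pathway.

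Signals of 43 of the 45 genes were called above background by the scanner software on each of the 24 arrays. ATG14 was above background on 21 arrays and CTSZ on 1 array, and none of the 45 had a saturated spot. No change is therefore given for CTSZ by itself, although it enters the medians and counts of the 45 genes. All levels below are normalized log2 signals, which cannot be compared between genes, and all changes are differences of these levels with limma's standard error (SE) and the Benjamini-Hochberg adjusted p over all 21240 genes. Between 50.9% and 82.4% of spots were above background, and the array of 100 nM rotenone on day 15, replicate 3, deviated most from its group, with a residual SD of 0.45 against 0.20 to 0.31 on the other arrays. All 6 neuronal markers were above background on all 6 DMSO arrays, as were 6 of 8 dopaminergic, 3 of 6 dividing-cell, 0 of 5 astrocyte, 2 of 4 tested oligodendrocyte and 2 of 6 tested microglial or macrophage markers. In bulk RNA, fewer cells with a transcript and less transcript per cell cannot be told apart.

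At the end of the exposure to 100 nM rotenone for 24 h, 7 of the 45 genes differed from DMSO at an adjusted p under 0.05. Higher were NPC2 and CTSL, which encode a lysosomal cholesterol carrier and a lysosomal cysteine protease, and the autophagy receptor OPTN. Lower were HEXA, GLA and CTSA, which encode lysosomal hydrolases, and BECN1, which encodes Beclin 1. The 3 higher genes were 6.67% of the 45, against 4.07% of all genes tested, and the 4 lower genes were 8.89%, against 5.41%. The median change of the 45 genes was -0.13, with 14 above 0, against a median of -0.02 over all genes.

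**Figure D1:**
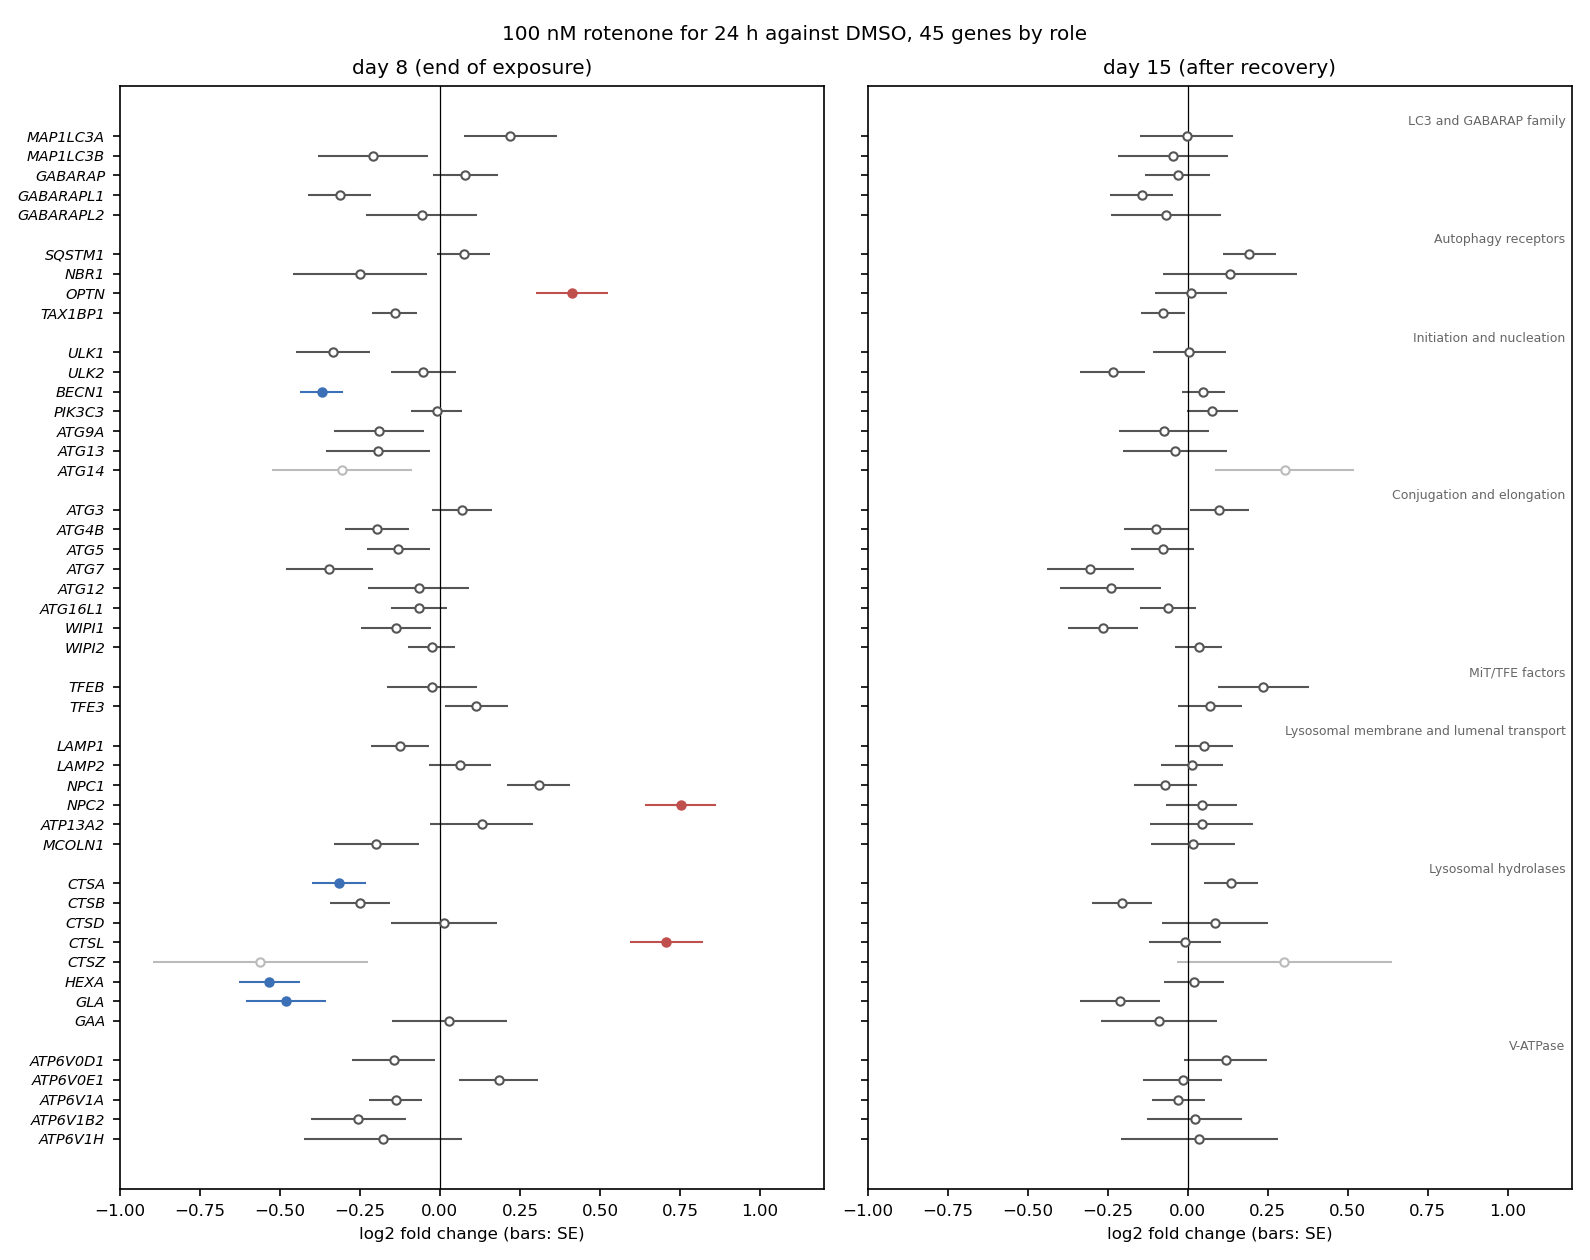
Log2 fold change of each of the 45 genes after 100 nM rotenone for 24 h against DMSO of the same day, on day 8 at the end of exposure and on day 15 after recovery, with bars for the SE; filled points passed an adjusted p under 0.05 (red higher, blue lower) and grey marks the genes not above background on every array. On day 8, 7 points are filled and on day 15 none is.

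NPC2 binds cholesterol in the lysosomal lumen and hands it to NPC1, the membrane protein that exports it. NPC2 read 8.88, 8.84 and 8.98 on the 3 DMSO arrays of day 8 and 9.64, 9.71 and 9.59 after 100 nM rotenone, so that all treated arrays were above all controls. It was 1.68-fold higher, a log2 change of 0.75 ± 0.11 (SE, n = 3 against 3, limma adjusted p = 0.000209). After 50 nM for 24 h it read 9.95, 9.57 and 9.86, a change of 0.89 ± 0.11 (limma adjusted p = 5.70e-05), and after 50 nM for 12 h it read 9.30, 9.19 and 9.52, a change of 0.44 ± 0.11 (limma adjusted p = 0.0253). The groups did not overlap with DMSO in any of these exposures. Here and below, lying wholly apart with 3 against 3 arrays amounts to an exact permutation p of 0.1 (two-sided). Its share over all genes is not given.

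NPC1 read 8.29, 8.16 and 8.33 in DMSO, 8.64, 8.59 and 8.49 after 100 nM for 24 h, and 8.66, 8.63 and 8.64 after 50 nM for 24 h. All treated arrays lay above the controls, but only the change after 50 nM, 0.38 ± 0.10, passed the test (limma adjusted p = 0.0205), and that after 100 nM was 0.31 ± 0.10 (limma adjusted p = 0.0555). After 50 nM for 12 h it read 8.51, 8.37 and 8.42, also above the controls, with a change of 0.17 ± 0.10. The call after 50 nM for 24 h was lost without any 1 array but DMSO replicate 3, with changes of 0.33 to 0.41.

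CTSL, the gene of cathepsin L, read 10.31, 10.06 and 10.21 in DMSO and 11.04, 10.87 and 10.80 after 100 nM rotenone. It was 1.63-fold higher, by 0.71 ± 0.11 on the log2 scale (limma adjusted p = 0.000438), without overlap between the groups. The arrays of 50 nM for 24 h read 10.85, 11.13 and 10.99 and those of 50 nM for 12 h 10.60, 10.83 and 10.90, changes of 0.80 ± 0.11 and 0.58 ± 0.11 (limma adjusted p = 0.00019 and 0.00392), again with every treated array above every control.

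HEXA encodes the alpha subunit of beta-hexosaminidase, which degrades GM2 ganglioside. It read 9.35, 9.20 and 9.39 in DMSO and 8.71, 8.72 and 8.91 after 100 nM rotenone, a change of -0.53 ± 0.09 (limma adjusted p = 0.00114). After 50 nM for 24 h the arrays read 8.47, 8.66 and 8.64 and the change was -0.72 ± 0.09 (limma adjusted p = 9.36e-05), and after 50 nM for 12 h they read 8.98, 8.87 and 8.94 with a change of -0.38 ± 0.09 (limma adjusted p = 0.0211). In each exposure all 3 treated arrays were below all 3 controls.

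CTSA encodes cathepsin A, the protective protein of beta-galactosidase and neuraminidase. Its values were 9.55, 9.61 and 9.50 in DMSO and 9.26, 9.22 and 9.25 after 100 nM rotenone, without overlap, a change of -0.31 ± 0.08 (limma adjusted p = 0.0223). Its brighter probe changed by -0.21 and its dimmer one by -0.42, and with the brightest probe of each gene CTSA was not called after 100 nM. With 50 nM for 24 h it read 8.996, 9.11 and 9.15 and the change was -0.47 ± 0.08 (limma adjusted p = 0.00157), whereas the 12 h arrays, at 9.57, 9.48 and 9.27, overlapped with DMSO. GLA, the alpha-galactosidase deficient in Fabry disease, read 10.67, 10.39 and 10.72 in DMSO and 10.22, 9.99 and 10.12 after 100 nM, a change of -0.48 ± 0.12 (limma adjusted p = 0.0189) with all treated arrays lower. Its changes after 50 nM, -0.30 ± 0.12 at both times, did not pass the test, with readings of 10.26, 10.23 and 10.38 at 12 h, all lower, and 10.31, 10.12 and 10.43 at 24 h, which overlapped with DMSO.

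Of the remaining hydrolases, CTSB was at -0.25 ± 0.09, CTSD at 0.01 ± 0.16 and GAA at 0.03 ± 0.18 after 100 nM rotenone, and none passed the test. The 8 hydrolases therefore held 1 higher and 3 lower gene. Their median of -0.28 includes CTSZ, which was rarely above background and had the lowest value among them.

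**Figure D2:**
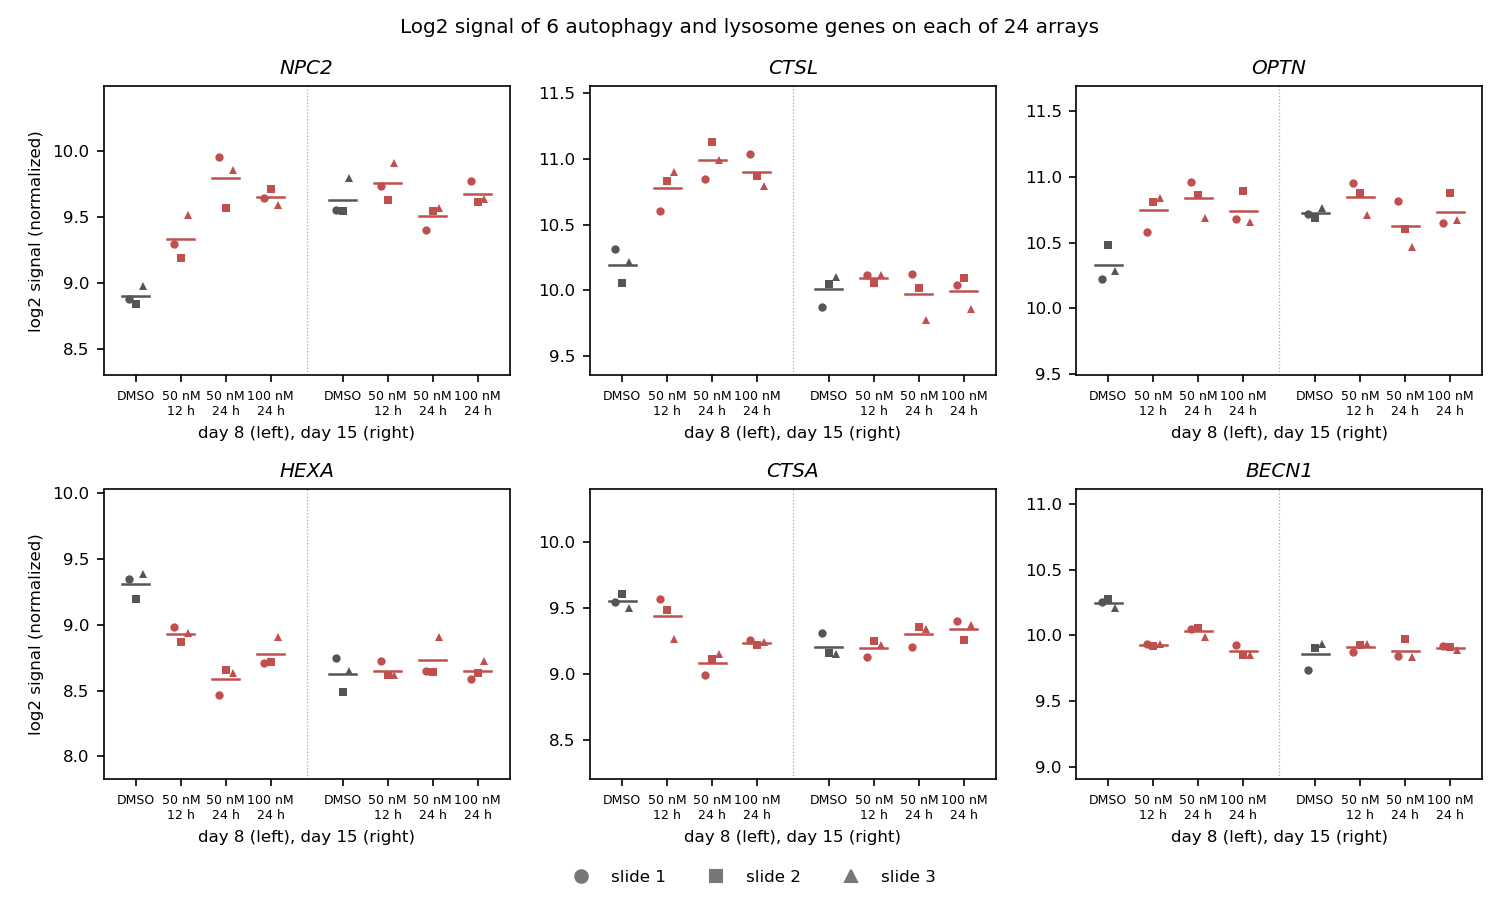
Normalized log2 signal of NPC2, CTSL, OPTN, HEXA, CTSA and BECN1 on each of the 24 arrays, by treatment and day, with 1 symbol for each slide, lines for the mean of 3 arrays, grey for DMSO and red for rotenone. On day 8 the rotenone arrays of 100 nM lie wholly above or wholly below DMSO for all 6 genes, and on day 15 they overlap with DMSO. All 6 genes are shown because they were called in this comparison of day 8, so that their lying apart is no further result.

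OPTN encodes optineurin, a receptor that binds ubiquitin and LC3 and acts in mitophagy. It read 10.22, 10.48 and 10.28 in DMSO, 10.68, 10.89 and 10.66 after 100 nM for 24 h, 10.96, 10.86 and 10.69 after 50 nM for 24 h and 10.58, 10.81 and 10.84 after 50 nM for 12 h. All 9 rotenone arrays were above the 3 controls. The changes were 0.41 ± 0.11, 0.51 ± 0.11 and 0.41 ± 0.11, in the same order (limma adjusted p = 0.0257, 0.0081 and 0.037). SQSTM1, the gene of the receptor p62, read 10.49, 10.45 and 10.49 in DMSO and 10.56, 10.65 and 10.45 after 100 nM, so that the groups overlapped, with a change of 0.07 ± 0.08 (limma adjusted p = 0.723). It read 10.25, 10.53 and 10.39 after 50 nM for 24 h and 10.58, 10.43 and 10.39 after 50 nM for 12 h, likewise with overlap. NBR1 and TAX1BP1 were at -0.25 ± 0.21 and -0.14 ± 0.07 and did not pass the test.

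BECN1 read 10.25, 10.28 and 10.21 in DMSO, 9.93, 9.85 and 9.85 after 100 nM for 24 h and 9.94, 9.92 and 9.93 after 50 nM for 12 h. The changes of -0.37 ± 0.07 and -0.32 ± 0.07 passed the test (limma adjusted p = 0.00135 and 0.00733). After 50 nM for 24 h it read 10.05, 10.06 and 9.99, also below every control, but the change of -0.22 ± 0.07 did not pass (limma adjusted p = 0.0556). ULK1, the kinase that starts autophagy, read 10.87, 11.05 and 11.10 in DMSO and 10.84, 10.44 and 10.75 after 100 nM; all treated arrays were lower, by a change of -0.33 ± 0.11 that missed the threshold (limma adjusted p = 0.0789). After 50 nM ULK1 read 10.64, 10.68 and 10.67 at 24 h, all below DMSO, and 10.95, 10.90 and 10.75 at 12 h, with overlap. All 7 genes of initiation and nucleation had a change below 0 after 100 nM, from -0.37 for BECN1 to -0.01 for PIK3C3, and 1 of them passed the test.

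After 50 nM for 24 h, ATG9A, which encodes a lipid scramblase of the early membrane, and ATG4B, which encodes the protease that primes LC3, passed the test as well. ATG9A read 8.23, 8.18 and 8.21 in DMSO and 7.35, 7.95 and 7.79 after 50 nM, a change of -0.51 ± 0.14 (limma adjusted p = 0.0284), and ATG4B read 9.85, 9.83 and 9.73 in DMSO and 9.31, 9.65 and 9.44 after 50 nM, a change of -0.34 ± 0.10 (limma adjusted p = 0.0468). In both genes replicate 1 was the lowest treated array. Without that array the change was -0.34 for ATG9A and -0.26 for ATG4B, the smallest among the 6 fits that left out 1 array of either group, and neither passed. Both calls were also lost without DMSO replicate 1, 2 or 3, ATG4B was lost without replicate 3 of 50 nM, and neither was called with a replicate block, a fit that pairs the arrays of a slide. Each gene had 2 probes, and with the brightest probe of each gene neither was called. The brighter probe changed by -0.32 in ATG9A and -0.37 in ATG4B, and the dimmer one by -0.71 and -0.30.

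Of the LC3 and GABARAP family 0 of 5 genes passed the test with 100 nM rotenone on day 8, and 1 had an unadjusted p under 0.05, against 20.6% of all genes. That gene, GABARAPL1, read 10.42, 10.63 and 10.37 in DMSO and 10.14, 10.24 and 10.10 after 100 nM, all lower, with a change of -0.31 ± 0.10 (limma adjusted p = 0.0523, and 0.0307 with a replicate block). After 50 nM it read 10.06, 10.34 and 10.28 at 24 h, again all lower, and 10.33, 10.39 and 10.15 at 12 h. MAP1LC3B, the LC3 most used to follow autophagosomes, read 10.97, 10.70 and 10.59 in DMSO and 10.55, 10.67 and 10.40 after 100 nM, with overlap and a change of -0.21 ± 0.17 (limma adjusted p = 0.586). Its 2 probes gave changes of -0.44 and 0.03. After 50 nM MAP1LC3B read 10.49, 10.72 and 10.52 at 24 h and 10.46, 10.53 and 10.22 at 12 h, where all arrays were below DMSO without passing the test. MAP1LC3A read 6.87, 6.97 and 6.86 in DMSO, 7.14, 7.34 and 6.88 after 100 nM, 7.17, 7.15 and 6.93 after 50 nM for 24 h and 7.12, 6.92 and 6.93 after 50 nM for 12 h. These groups overlapped, and the change with 100 nM was 0.22 ± 0.14.

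Neither TFEB nor TFE3 passed the test on day 8. TFEB read 8.65, 8.53 and 8.79 in DMSO and 8.75, 8.44 and 8.71 after 100 nM, a change of -0.03 ± 0.14 (limma adjusted p = 0.962), and after 50 nM 8.68, 8.60 and 8.73 at 24 h and 8.25, 8.54 and 8.70 at 12 h. The groups overlapped at every exposure. LAMP1, the abundant glycoprotein of the lysosomal membrane, read 13.42, 13.35 and 13.51 in DMSO and 13.22, 13.32 and 13.38 after 100 nM, with a change of -0.12 ± 0.09 (limma adjusted p = 0.517), and after 50 nM 13.39, 13.28 and 13.45 at 24 h and 13.53, 13.29 and 13.44 at 12 h. ATP13A2, a lysosomal polyamine exporter mutated in a juvenile form of parkinsonism, read 9.996, 9.90 and 9.83 in DMSO and 10.03, 10.16 and 9.92 after 100 nM, a change of 0.13 ± 0.16, and after 50 nM 9.50, 9.97 and 9.73 at 24 h and 10.33, 10.06 and 9.63 at 12 h. LAMP1 and ATP13A2 overlapped with DMSO in all 3 exposures. The 5 V-ATPase subunits lay between -0.26 and 0.18 and 0 passed, with 0 at an unadjusted p under 0.05.

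After 50 nM for 24 h, 4 of the 45 genes were higher (8.89%, against 3.66% of all genes) and 4 lower (8.89%, against 4.36%). With the deposited values 4 were higher and 10 lower. After 50 nM for 12 h, 5 genes were called, 3 higher (6.67%, against 2.66%) and 2 lower (4.44%, against 2.85%). Of the 12 h calls, BECN1 and CTSL held in all 6 fits without 1 array. OPTN was lost without DMSO replicate 1 or 3 or rotenone replicate 2 or 3, HEXA without the same arrays, and NPC2 without DMSO replicate 1 or 2 or rotenone replicate 1 or 3, so that 2 genes remained called without DMSO replicate 1 or rotenone replicate 3 and 3 without DMSO replicate 3 or rotenone replicate 2. The 3 comparisons share the same DMSO arrays, so that their calls are not independent. Doses were compared at 24 h, where limma called 0 of the 45 genes and 0% of all genes, with 3 of the 45 (BECN1, ATG9A and CTSZ, named for this count) at an unadjusted p under 0.05, against 4.17% of all genes. The 95% interval of the difference between 100 nM and 50 nM ran from -0.38 to 0.09 for NPC2, from -0.33 to 0.15 for CTSL and from -0.01 to 0.39 for HEXA. Between 24 h and 12 h of 50 nM, limma called 0 of the 45 genes, against 0.268% of all genes higher and 0.268% lower, with 11 of the 45 at an unadjusted p under 0.05, against 10.9% of all genes. NPC2 was closest to the threshold among those higher, with a difference of 0.46 (95% interval 0.23 to 0.69, limma adjusted p = 0.0701), and CTSA among those lower, with -0.35 (-0.53 to -0.18, limma adjusted p = 0.0667).

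NPC2, CTSL, HEXA and BECN1 passed the test with 100 nM in all 6 fits that left out 1 array of either group. OPTN and GLA passed in 2 of these fits and CTSA in 1. OPTN was lost without DMSO replicate 1 or 3 or rotenone replicate 1 or 2, GLA without DMSO replicate 1 or 3 or rotenone replicate 2 or 3, and CTSA without any array but DMSO replicate 3. Their changes stayed between 0.34 and 0.49, between -0.58 and -0.42 and between -0.34 and -0.29. Without batch correction NPC2, CTSL and HEXA were called, and with slides 2 and 3 alone CTSL was. The summed signal of the neuronal markers was 17.55 to 17.57 after 100 nM and 17.59 to 17.80 in DMSO, and among these markers MAP2 was lower by the test, at -0.57 (limma adjusted p = 0.00281). The part of these markers in the changes above was not tested.

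The promoters of the genes were searched for 4 motifs in the 250 bases before each start in RefSeq (GRCh38.p14), on both strands. The table held 47 promoters of 37 of the genes, and MAP1LC3A, LAMP2, CTSB, HEXA, ATP6V0E1, ATP6V1A, ATP6V1B2 and ATP6V1H had no entry. The E-box CACGTG, the core of the element that TFEB and TFE3 bind, was in 8 of the 47 promoters (17.02%) and in 6.34% of all 35116 promoters. Its longer palindrome TCACGTGA, which contains CACGTG, was in 5 of the 47 (10.6%) and in 0.854% of all. The motif TGACNNNGC, the core of the antioxidant response element, was in 9 of the 47 (19.1%) and in 10.9% of all, and TGATGNAA, the composite element of ATF4 and its partners, was in 0 of the 47 and in 3.14% of all. A match is a description of the letters and not of a bound site.

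The 5 genes with TCACGTGA were LAMP1, MCOLN1, CTSA, GAA and ATP6V0D1. Of these, CTSA fell with 100 nM rotenone on day 8 and the other 4 did not pass the test. Their windows are shown because they place the element right in front of the start, and each run ends at the last base before the start, 5′ to 3′ on the strand of the gene, with CACGTG in capitals.
CTSA, chr20:45891245-45891334, plus strand: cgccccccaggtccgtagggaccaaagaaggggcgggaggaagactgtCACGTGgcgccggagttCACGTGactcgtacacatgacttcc
GAA, chr17:80101491-80101580, plus strand: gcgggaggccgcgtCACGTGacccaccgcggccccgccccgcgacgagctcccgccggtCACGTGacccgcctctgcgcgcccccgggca
MCOLN1, chr19:7522534-7522623, plus strand: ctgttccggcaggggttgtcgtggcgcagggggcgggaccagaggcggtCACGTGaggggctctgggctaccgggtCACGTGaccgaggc
ATP6V0D1, chr16:67481158-67481247, minus strand: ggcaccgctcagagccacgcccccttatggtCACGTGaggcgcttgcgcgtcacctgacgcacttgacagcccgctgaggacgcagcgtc
LAMP1, chr13:113297039-113297238, plus strand: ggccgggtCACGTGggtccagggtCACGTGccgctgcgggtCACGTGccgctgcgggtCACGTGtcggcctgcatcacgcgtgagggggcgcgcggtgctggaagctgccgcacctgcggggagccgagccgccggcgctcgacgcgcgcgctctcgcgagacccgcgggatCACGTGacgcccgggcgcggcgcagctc
LAMP1 held 5 copies of CACGTG, and CTSA, GAA and MCOLN1 held 2 each.

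The genes with the largest rises on day 8, NPC2 and CTSL, had no CACGTG in this window and 1 match each to TGACNNNGC, which is in capitals in the windows that follow, on the reverse strand in CTSL.
CTSL, chr9:87726029-87726118, plus strand: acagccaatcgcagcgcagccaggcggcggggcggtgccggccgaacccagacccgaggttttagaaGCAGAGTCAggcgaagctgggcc
NPC2, chr14:74493306-74493395, minus strand: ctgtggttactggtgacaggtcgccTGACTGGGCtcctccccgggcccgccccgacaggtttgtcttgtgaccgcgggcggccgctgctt
NPC2 has a further start in the table without this match, while LAMP1, CTSA, CTSD, GAA and ATP6V0D1 hold TGACNNNGC beside CACGTG.

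After wash-out and 7 days of recovery, limma called 0 of the 45 genes in each of the 3 exposures, as it called 0% of all genes. At an unadjusted p under 0.05 there were 5 of the 45 after 100 nM (SQSTM1, ULK2, ATG7, WIPI1 and CTSB), 0 after 50 nM for 24 h and 1 after 50 nM for 12 h (ATG3), all named for these counts. Over all genes 7.21%, 3.28% and 3.47% had an unadjusted p under 0.05 in these comparisons. The smallest adjusted p among the 45 was 0.649 after 100 nM. The median change of the 45 genes after 100 nM was 0.00, with 23 of 45 above 0.

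NPC2 read 9.55, 9.55 and 9.80 in DMSO of day 15 and 9.78, 9.62 and 9.64 after 100 nM, and the groups overlapped with a change of 0.04 ± 0.11 (95% interval -0.19 to 0.28). CTSL read 9.87, 10.05 and 10.10 in DMSO and 10.04, 10.10 and 9.86 after 100 nM, a change of -0.01 ± 0.11 (-0.25 to 0.23). HEXA read 8.75, 8.49 and 8.65 in DMSO and 8.59, 8.63 and 8.72 after 100 nM, a change of 0.02 ± 0.09 (-0.18 to 0.22). BECN1 read 9.74, 9.90 and 9.93 in DMSO and 9.92, 9.91 and 9.89 after 100 nM, a change of 0.05 ± 0.07 (-0.09 to 0.19). The intervals of all 4 genes excluded the changes measured on day 8, but these intervals leave out the error of the day 8 changes. The 4 genes are those called by the test of the difference given below, which takes in the error of both days.

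OPTN, at 10.72, 10.69 and 10.76 in DMSO and 10.65, 10.87 and 10.67 after 100 nM, was at 0.01 ± 0.11. CTSA read 9.31, 9.16 and 9.15 in DMSO and 9.40, 9.26 and 9.37 after 100 nM, a change of 0.14 ± 0.08, and GLA read 10.24, 10.22 and 10.41 in DMSO and 9.82, 10.12 and 10.29 after 100 nM, a change of -0.21 ± 0.12. These 3 genes overlapped with DMSO. SQSTM1 read 10.69, 10.60 and 10.57 in DMSO and 10.82, 10.76 and 10.86 after 100 nM, with all treated arrays higher and a change of 0.19 ± 0.08 that did not pass the test (limma adjusted p = 0.663). ATG7, which activates the ubiquitin-like ATG proteins, was at -0.30 ± 0.14; its arrays read 6.72, 6.61 and 5.99 after 100 nM and 6.70, 6.76 and 6.76 in DMSO, and replicate 3, the array with the largest deviation, was the lowest.

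TFEB read 9.55, 9.40 and 9.72 after 100 nM on day 15, all above the DMSO readings of 9.39, 9.27 and 9.31, with a change of 0.24 ± 0.14 that did not pass the test (limma adjusted p = 0.726). The other genes of which all arrays are given overlapped with DMSO after recovery from 100 nM. ULK1 read 10.59, 10.61 and 10.50 and NPC1 7.83, 8.01 and 7.65. GABARAPL1 read 10.64, 10.52 and 10.62, MAP1LC3A 7.35, 7.58 and 7.57 and MAP1LC3B 11.18, 11.41 and 10.96. The DMSO arrays of LAMP1 read 13.24, 13.25 and 13.53 and the treated arrays 13.49, 13.33 and 13.36. For ATP13A2 the treated arrays read 10.53, 10.54 and 10.55, the narrowest range of its 8 groups.

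After recovery from 50 nM, given for 12 h or for 24 h, all 16 of these genes overlapped with DMSO of day 15 at both times. The share of all genes that overlapped is not given, and overlap by itself does not show a return to the control level. NPC2 read 9.73, 9.63 and 9.91 after 12 h and 9.40, 9.55 and 9.57 after 24 h, CTSL 10.12, 10.05 and 10.12 and 10.12, 10.01 and 9.78. HEXA read 8.72, 8.62 and 8.62 after 12 h and 8.65, 8.64 and 8.91 after 24 h, CTSA 9.13, 9.25 and 9.22 and 9.21, 9.36 and 9.34, and GLA 10.33, 10.08 and 10.34 and 10.33, 10.13 and 10.16. None of these lysosomal genes, which had moved on day 8, lay apart from the controls. BECN1 read 9.87, 9.93 and 9.93 after 12 h and 9.85, 9.97 and 9.84 after 24 h, and ULK1 10.39, 10.63 and 10.53 and 10.55, 10.69 and 10.97. OPTN read 10.95, 10.88 and 10.71 after 12 h and 10.82, 10.61 and 10.46 after 24 h, and SQSTM1 10.80, 10.64 and 10.70 and 10.69, 10.77 and 10.80. Of these 4 genes of initiation and cargo binding, ULK1 had its highest array of day 15 in replicate 3 of 50 nM for 24 h. MAP1LC3A read 7.38, 7.57 and 7.09 after 12 h and 7.42, 7.77 and 7.73 after 24 h, MAP1LC3B 11.02, 11.55 and 11.14 and 11.18, 11.46 and 10.92, and GABARAPL1 10.84, 10.81 and 10.68 and 10.92, 10.90 and 10.81. TFEB read 9.38, 9.09 and 9.50 after 12 h and 9.48, 9.09 and 9.54 after 24 h, with its lowest array in replicate 2 each time. NPC1 read 7.84, 8.06 and 7.82 after 12 h and 7.82, 8.09 and 7.94 after 24 h, LAMP1 13.36, 13.32 and 13.42 and 13.39, 13.34 and 13.47, and ATP13A2 10.43, 10.49 and 10.38 and 10.33, 10.78 and 10.90.

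The difference between the effects of 100 nM on day 15 and on day 8, each against its own DMSO arrays, was tested for every gene. It passed for 4 of the 45 genes, 2 with a higher effect on day 15 (4.44% of the 45, against 1.15% of all genes) and 2 with a lower one (4.44%, against 1.29%). With scaling to the 75th percentile it was 1 higher and 2 lower. The effect on NPC2 was lower on day 15 by -0.71 ± 0.16 and that on CTSL by -0.72 ± 0.16 (limma adjusted p = 0.0192 and 0.0198). The effect on BECN1 was higher on day 15 by 0.42 ± 0.09 and that on HEXA by 0.55 ± 0.13 (limma adjusted p = 0.0222 and 0.0332). With CTSA the difference was 0.45 ± 0.12 and missed the threshold (limma adjusted p = 0.0523). These calls were sensitive to single arrays: of 12 fits without 1 array, NPC2 passed in 9, BECN1 and CTSL in 7 each and HEXA in 4. The differences stayed between -0.76 and -0.63 for NPC2, -0.78 and -0.65 for CTSL, 0.36 and 0.45 for BECN1 and 0.48 and 0.62 for HEXA, and the highest adjusted p by limma were 0.0534, 0.0675, 0.0597 and 0.095.

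Between day 8 and day 15 the DMSO aggregates themselves changed, and 16 of the 45 genes passed the test, 35.6% of the list. Of these 7 were higher on day 15, 15.6% against 10.1% of all genes, and 9 were lower, 20.0% against 13.2%. With scaling to the 75th percentile in place of quantiles the split was 5 higher and 10 lower. Among the genes that start autophagy 3 of 7 were lower, and both MiT/TFE factors were higher. The median change of the 45 was -0.09, against -0.04 over all genes. The DMSO arrays of day 8 serve in this comparison and in the rotenone comparisons of day 8, so that these are not independent and their values are only set side by side. Over the same days the summed signal of the dividing-cell markers went from 8.67 to 9.86 on day 8 to 7.23 to 7.45 on day 15 in DMSO, with 6 of 6 markers lower by the test. The dopaminergic markers were divided: TH and SLC6A3 were lower, with changes of -2.94 and -2.07, NR4A2, KCNJ6 and PITX3 were higher, by 1.57, 1.16 and 0.46, and the other 3 of 8 did not pass the test. The part of these markers in the changes that follow was not tested.

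**Figure D3:**
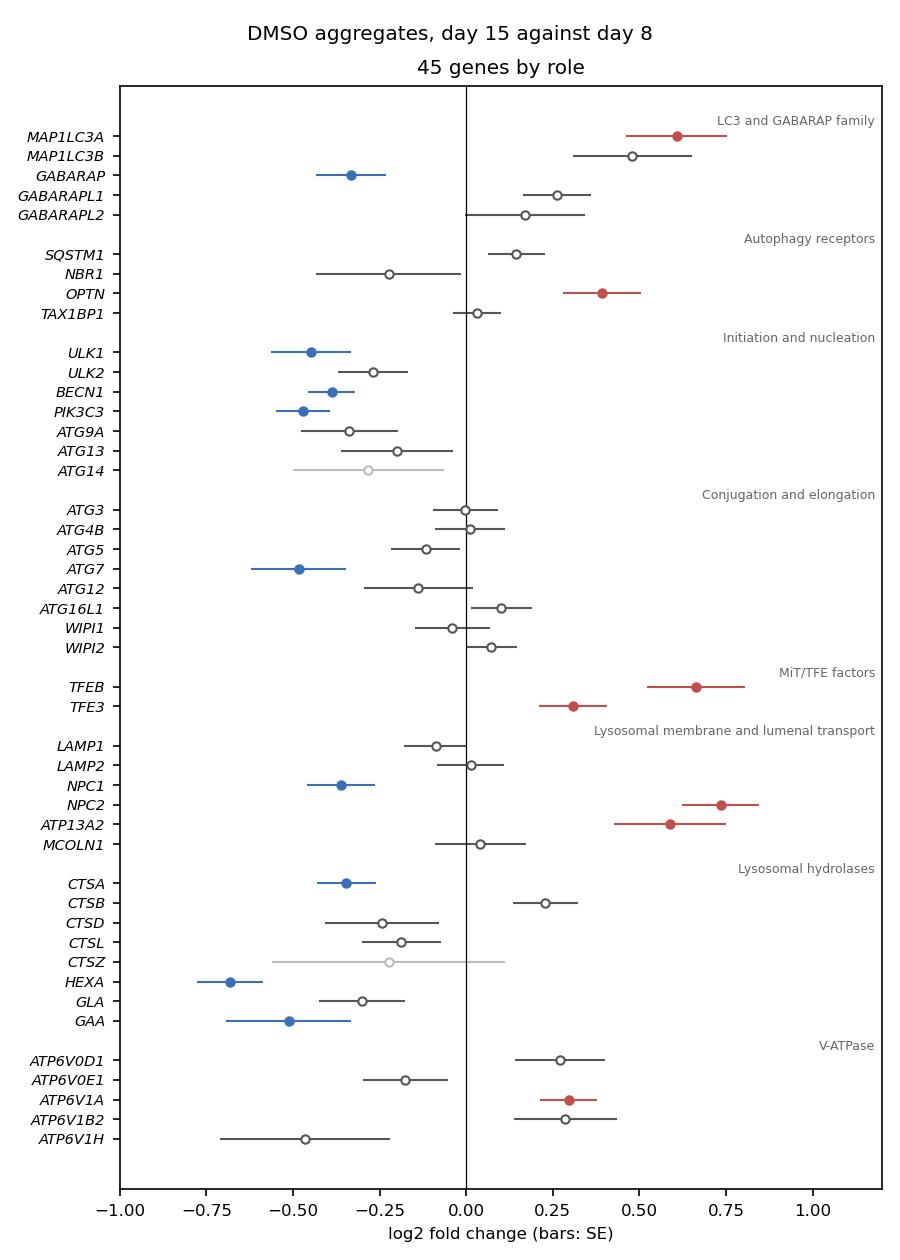
Log2 fold change of each of the 45 genes in DMSO on day 15 against day 8, by role, with bars for the SE; filled points passed an adjusted p under 0.05 (red higher, blue lower) and grey marks the genes not above background on every array. All 7 genes of initiation and nucleation lie below 0 with 3 filled, and both MiT/TFE factors are filled above 0.

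Of the 7 genes of initiation and nucleation, 3 were lower and the other 4 also had changes below 0, with a median of -0.34. ULK1 read 10.87, 11.05 and 11.10 on day 8 and 10.67, 10.55 and 10.46 on day 15, a change of -0.45 ± 0.11 (limma adjusted p = 0.00762). PIK3C3, the lipid kinase that works with Beclin 1, read 10.15, 10.13 and 10.08 on day 8 and 9.56, 9.72 and 9.67 on day 15, a change of -0.47 ± 0.08 (limma adjusted p = 0.000191). BECN1 changed by -0.39 ± 0.07 (limma adjusted p = 0.000266). In all 3 genes the days did not overlap. ATG7 was the only lower gene among the 8 of conjugation and elongation, at -0.48 ± 0.14 (limma adjusted p = 0.014).

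In the LC3 and GABARAP family, MAP1LC3A rose and GABARAP fell. MAP1LC3A read 6.87, 6.97 and 6.86 on day 8 and 7.62, 7.64 and 7.26 on day 15, 1.52-fold higher, by 0.61 ± 0.14 on the log2 scale (limma adjusted p = 0.00444). GABARAP read 13.88, 13.60 and 13.65 on day 8 and 13.36, 13.39 and 13.38 on day 15, a change of -0.33 ± 0.10 (limma adjusted p = 0.0218). MAP1LC3B was at 11.14, 11.52 and 11.03 on day 15, all above day 8, with a change of 0.48 ± 0.17 at the threshold (limma adjusted p = 0.0504, and 0.00246 with a replicate block), and GABARAPL1, at 10.74, 10.87 and 10.60, had a change of 0.26 ± 0.10 (limma adjusted p = 0.0619, and 0.0414 with a replicate block). Among the receptors OPTN was higher, by 0.39 ± 0.11 (limma adjusted p = 0.0162), and SQSTM1 was at 0.15 ± 0.08.

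TFEB read 8.65, 8.53 and 8.79 on day 8 and 9.39, 9.27 and 9.31 on day 15, 1.58-fold higher, by 0.66 ± 0.14 on the log2 scale (limma adjusted p = 0.00182). Its 2 probes differed: one went from 7.07, 6.72 and 7.24 to 8.26, 8.14 and 8.45, a change of 1.27 ± 0.16, and the other from 10.23, 10.34 and 10.33 to 10.52, 10.40 and 10.16, a change of 0.06 ± 0.20. The second is the brighter, so that with the brightest probe of each gene TFEB was not called. TFE3 was higher by 0.31 ± 0.10 (limma adjusted p = 0.0291), with probes at 0.48 and 0.14.

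NPC2 went from 8.88, 8.84 and 8.98 to 9.55, 9.55 and 9.80, a change of 0.73 ± 0.11 (limma adjusted p = 7.24e-05), while NPC1 went from 8.29, 8.16 and 8.33 to 7.90, 7.98 and 7.81, a change of -0.36 ± 0.10 (limma adjusted p = 0.011). The 2 partners of cholesterol export thus moved in opposite directions with time and upward together, in the exposure to 50 nM for 24 h, on day 8. ATP13A2 read 10.64, 10.50 and 10.35 on day 15, all above day 8, a change of 0.59 ± 0.16 (limma adjusted p = 0.0116).

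HEXA went from 9.35, 9.20 and 9.39 to 8.75, 8.49 and 8.65, 1.60-fold lower, a change of -0.68 ± 0.09 and the smallest adjusted p among the 45 genes (2.64e-05 by limma). CTSA changed by -0.35 ± 0.08 and GAA, the acid glucosidase, by -0.51 ± 0.18 (limma adjusted p = 0.00522 and 0.0474). CTSL, at 9.87, 10.05 and 10.10 on day 15, changed by -0.19 ± 0.11 and did not pass the test, nor did GLA at -0.30 ± 0.12. Of the V-ATPase, ATP6V1A, a catalytic subunit, was higher by 0.30 ± 0.08 (limma adjusted p = 0.0137).

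Of the 16 calls between the days, those of MAP1LC3A, ULK1, BECN1, PIK3C3, ATG7, TFEB, NPC1, NPC2, CTSA and HEXA held in all 6 fits that left out 1 DMSO array. The call of ATP13A2 was lost without replicate 1 of day 15, that of OPTN without replicate 1 or 3 of day 8, and that of GABARAP without replicate 1 of day 8 or replicate 1 or 2 of day 15. ATP6V1A was lost without replicate 1 or 2 of day 8 or replicate 3 of day 15, TFE3 without replicate 2 or 3 of day 8 or replicate 1 or 2 of day 15, and GAA without any array but replicate 3 of day 15. All 6 genes kept the sign of their change in these fits, with changes of 0.52 to 0.66 for ATP13A2, 0.34 to 0.47 for OPTN, -0.39 to -0.25 for GABARAP, 0.26 to 0.35 for ATP6V1A, 0.24 to 0.43 for TFE3 and -0.63 to -0.41 for GAA.

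Side by side, the changes with 100 nM rotenone on day 8 and with time in DMSO were 0.75 and 0.73 for NPC2, 0.41 and 0.39 for OPTN, -0.53 and -0.68 for HEXA, -0.37 and -0.39 for BECN1, -0.31 and -0.35 for CTSA and -0.48 and -0.30 for GLA. Both comparisons subtract the same DMSO arrays of day 8, so that a part of any likeness is built in. CTSL, at 0.71 and -0.19, and NPC1, at 0.31 and -0.36, had opposite signs in these comparisons, of which the first of CTSL and the second of NPC1 passed the test. GABARAPL1, MAP1LC3B and TFEB had opposite signs as well, and of their changes that of TFEB with time passed. ULK1, MAP1LC3A, ATP13A2, SQSTM1 and LAMP1 had the same sign in both.

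LAMP2 as the mean of its 3 probes changed by 0.01 ± 0.10 between the days, but the probes did not move together, and they had the widest range of changes among the genes with several probes, 1.26. LAMP2 is spliced at its last exon into isoform A, the receptor of chaperone-mediated autophagy, isoform B and isoform C, and the design of the array assigns 1 probe to the transcript of each. The isoform A probe read 9.56, 9.70 and 9.48 on day 8 and 10.34, 10.47 and 10.34 on day 15, a change of 0.81 ± 0.12 (limma adjusted p = 9.89e-05 over all probes). The isoform C probe read 8.67, 8.53 and 8.52 on day 8 and 8.09, 8.35 and 8.34 on day 15, a change of -0.32 ± 0.10 (limma adjusted p = 0.0282), and the isoform B probe went from 8.39, 7.87 and 7.89 to 7.27, 7.87 and 7.65, a change of -0.45 ± 0.21 that did not pass the test (limma adjusted p = 0.153). By probe, 9.23% of 29394 probes were higher and 11.6% lower.

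The signal of the isoform A probe over that of the isoform C probe on the same array was 0.88 to 1.17 on the log2 scale in DMSO on day 8 and 2.001 to 2.25 on day 15. The shift was 1.12, with an exact permutation p of 0.1 (two-sided), the smallest that 3 against 3 arrays allow. Over all treatments this difference was 0.56 to 1.17 on the 12 arrays of day 8 and 1.77 to 2.33 on the 12 of day 15, without overlap. Against the isoform B probe it was 1.17 to 2.15 and 2.13 to 3.36, which overlapped. LAMP2 was examined by probe after its values had been seen, and which transcripts the probes bind was not tested. Rotenone on day 8 gave changes of the 3 probes between -0.23 and 0.30 over the 3 exposures, and none passed the test.

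**Figure D4:**
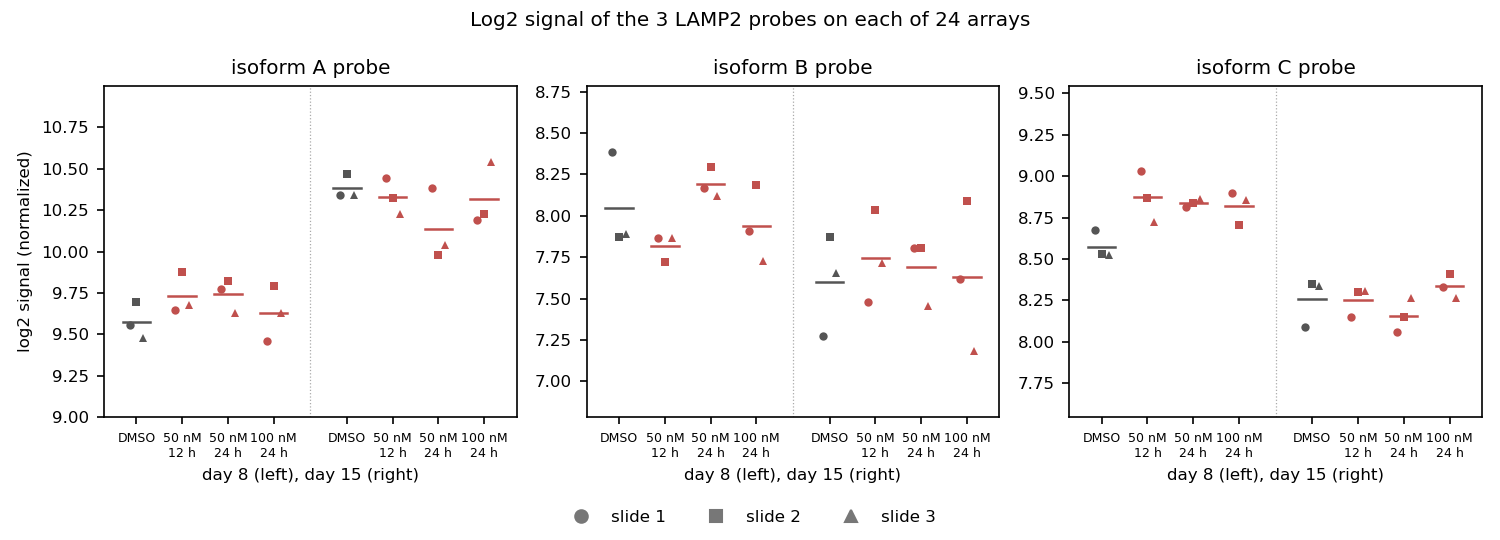
Normalized log2 signal of the 3 LAMP2 probes on each of the 24 arrays, by treatment and day, with 1 symbol for each slide, lines for the mean of 3 arrays, grey for DMSO and red for rotenone. The isoform A probe is higher on all 12 arrays of day 15 than on any array of day 8, and the isoform C probe is lower on all of them.

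A wider list of 134 autophagy, lysosome and nutrient-sensing genes that are not among the 45, of which 133 were tested, gave the setting for these values. With 100 nM rotenone on day 8, 8 of the 133 were higher and 8 were lower, 6.02% each, against 4.07% and 5.41% of all genes, with a median change of -0.06. In the 33 other lysosomal hydrolases and cofactors 4 were higher and 4 lower, 12.1% each. CTSF, the gene of cathepsin F, had the largest fall of a called gene among them, at -0.63 ± 0.12 (limma adjusted p = 0.00256). Among the 29 other core autophagy genes, VAMP8, a SNARE of autophagosome fusion, rose by 0.51 ± 0.13 and ATG4A, a further LC3 protease, changed by -0.38 ± 0.11 (limma adjusted p = 0.0187 and 0.0262).

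Among 26 inputs of mTORC1 and AMPK, 3 were higher and 2 lower, 11.54% and 7.69%. RRAGD, a Rag GTPase of the lysosomal surface, rose by 0.52 ± 0.14 and SESN2, a leucine sensor induced by stress, changed by -0.55 ± 0.10 (limma adjusted p = 0.025 and 0.00133). Of 13 other autophagy and mitophagy receptors 1 was lower, BNIP3L, at -0.26 ± 0.07 (limma adjusted p = 0.0224), and 0 of 12 other V-ATPase subunits and 0 of 20 other lysosomal membrane proteins passed the test, with 1 and 2 at an unadjusted p under 0.05. After recovery limma called 0 of the 133 in each exposure, with 7 after 100 nM, 4 after 50 nM for 24 h and 2 after 50 nM for 12 h at an unadjusted p under 0.05. From day 8 to day 15 in DMSO, 12 of the 133 were higher and 26 lower, 9.02% and 19.5%, against 10.1% and 13.2% of all genes. The 33 other hydrolases and cofactors held 14 of the lower genes and 0 of the higher ones, with a median change of -0.34.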

How the data were processed

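RNA was measured in 24 samples, 8 groups of 3, grouped by the labels. The authors deposited the scanner intensity of every spot of each array, with the outlier and above-background calls of the scanner software, and their own normalized log2 values for 21733 probes. Feature Extraction 12.0.0.7 wrote slide 2 and 11.5.1.1 slides 1 and 3, per the file headers, and the submitters' processing notes name 11.5.1.1 and R 3.5. The file of DMSO on day 15, replicate 1, is named for 12 h on day 15, an exposure time of rotenone groups. It does not name DMSO, and its group rests on the label. This array enters every comparison with DMSO of day 15. Without it ATP13A2, GAA, GABARAP and TFE3 lost their calls between the days. For the difference of effects BECN1 lost its call and CTSA gained one.

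As in the methods, median intensities were corrected with normexp (offset 0, not given in the sources used here), quantile normalized in limma 3.58.1 (R 4.3.3) and corrected for slide 1, taken here as the repeated slide, with parametric ComBat, written out and tested on simulated data, with the groups as covariates. The paper describes its batch as a subset of arrays handled at another time and washed in another way. Spots over 1.1 times the 95th percentile of 308 negative controls on at least 3 arrays were kept, outlier spots were set to missing, and spots and then probes of a gene were averaged after matching accessions to RefSeq, which named 30275 of 50599 probes. All arrays entered 1 limma fit (16 residual degrees of freedom, two-sided p values), and genes were called at an adjusted p under 0.05. The 10 comparisons were each treatment against DMSO on each day, the days in DMSO, the difference of the 100 nM effects, the doses and the times. With few arrays per group their number limits the precision.

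The replicate number is the slide, and each slide held 1 array of each group. In values without ComBat, deviations of same-numbered arrays from their group means correlated at 0.172 or more in 84 pairs (median 0.458). The median was -0.36 in 168 other pairs, where deviations from a mean of 3 arrays lean to negative values by construction. An effect of the slide and a pairing of the samples cannot be told apart here.

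The members and lists were chosen with earlier results of these data known. All array values are given for members called with a fold over 1.5 in any comparison, for the 10 with the smallest p in 100 nM on day 8, and for MAP1LC3B, SQSTM1, TFEB and LAMP1, and of each wider list the called genes with the largest rise and fall are named. A gene that this rule names is not reported here. Alternatives were other background, scaling, filter and probe rules, no ComBat, a replicate block, slides 2 and 3, the deposited log2 values of the authors (42 of the 45 genes), the compared arrays alone and each array left out. Figures used matplotlib 3.10.9 under Python 3.11.15.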

Additional observations from a re-analysis of the deposited data

Results flagged for a closer look

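The effect of 100 nM rotenone differed between day 8 and day 15 in 4 of the 45 genes by limma's test of the difference itself, with the DMSO arrays of each day as its control. The difference, day 15 minus day 8 on the log2 scale, was -0.71 for NPC2, -0.72 for CTSL, 0.42 for BECN1 and 0.55 for HEXA. By direction the test called 4.44% of the 45 higher, against 1.15% of all genes, and 4.44% lower, against 1.29%. In each gene the 3 rotenone arrays lay apart from DMSO on day 8 and overlapped with DMSO on day 15. The same arrays gave the test, so that this describes its calls and is no further result. The group means were as follows. For CTSL the treated mean went from 10.90 on day 8 to 9.998 on day 15 and the DMSO mean from 10.19 to 10.01. For NPC2 the treated mean was 9.65 and 9.68 while the DMSO mean went from 8.90 to 9.63, and for BECN1 the treated mean was 9.88 and 9.91 while the DMSO mean went from 10.25 to 9.86. For HEXA the treated mean went from 8.78 to 8.65 and the DMSO mean from 9.31 to 8.63. The part of the later stage of differentiation in these differences was not tested.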

How the results depend on the processing

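Single genes were followed under the alternatives for the 16 genes with all arrays given. This covered 100 nM on day 8, 100 nM on day 15 and the days in DMSO, and not the other comparisons. There no change was reversed: 736 values kept their side of the threshold, 48 lost it and 29 gained it. With 100 nM on day 15, 0 of the 45 genes were called in any run. Without batch correction 3, 5, 1, 6 and 0 of the 45 genes were called in place of 7 (100 nM), 8 (50 nM, 24 h), 5 (50 nM, 12 h), 16 (days in DMSO) and 4 (difference of the 100 nM effects); with slides 2 and 3 alone 1, 1, 1, 6 and 0, and with the compared arrays alone 3, 3, 0, 10 and 0. Both of the last settings use fewer arrays, and for the missing batch correction the cause was not tested. The deposited values gave 14 genes for 50 nM at 24 h, 4 higher and 10 lower. Between 24 h and 12 h, in place of 0, an offset of 50 gave 2, scaling to the 75th percentile 1, probes well above background alone 2 and the deposited values 3. With a replicate block in place of ComBat, the paired fit, 8, 7, 6, 18 and 4 genes were called, among them all those of the ComBat fit except ATG4B and ATG9A at 50 nM for 24 h. With 1 array left out the counts were 4 to 6 for 100 nM, 5 to 8 for 50 nM at 24 h, 2 to 4 for 50 nM at 12 h, 12 to 18 between the days, 1 to 4 for the difference of effects and 0 to 3 between 24 h and 12 h. By over 1.5 times, the count fell from 7 without DMSO replicate 1 or rotenone replicate 2 of 100 nM on day 8 (4 each), to 5 of 8 for 50 nM at 24 h without DMSO replicate 1 or 2 or rotenone replicate 1, and from 4 for the difference of effects to 1 without DMSO replicate 2 or rotenone replicate 2 of day 8 or DMSO replicate 3 of day 15 and to 2 without DMSO replicate 1 or rotenone replicate 1 of day 8 or DMSO replicate 2 or rotenone replicate 3 of day 15. In turn 3 genes, ATG4B, CTSA and NPC2, were called between 24 h and 12 h without replicate 3 of 50 nM for 12 h, and 1, NPC2, without replicate 2 of 50 nM for 24 h. Scaling the processed signal to the 75th percentile moved the median of all genes from -0.02 to 0.10 with 100 nM on day 8 and from -0.04 to 0.15 between the days, and the same scaling of the median signal moved it from -0.01 to 0.14 for the difference of effects; the directions of the called genes stayed the same. CTSZ and ATG14 are limited by signal over background.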
